A study of Mus musculus with 4 samples.

Results

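Accessible chromatin at 10 genes of the vessel wall was examined in visceral fat of CD-1 mice. The genes were Acta2, Myh11, Tagln and Cnn1, which encode contractile proteins, Myocd, which encodes a regulator of those proteins, and Rgs5, Notch3, Cspg4, Pdgfrb and Mcam, which encode signalling and surface proteins of pericytes and smooth muscle cells. They are 10 of the 21000 protein-coding genes with a curated RefSeq start site on GRCm38 (mm10). They were chosen by name, with earlier results of these data known. For each gene 2 sets of peaks were collected, those overlapping the promoter, 500 bp either side of the start site, and those overlapping the locus, from 20 kb upstream of the start site to the gene end. The question asked was whether these vessel wall loci differed between control and BPA animals.

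The series held 4 ATAC-seq libraries. ATAC-seq uses a transposase that cuts open chromatin, so that piles of reads, called as peaks, mark accessible sites. Control 1 and control 2 came from 8-week-old descendants of dams given sesame oil, and BPA 1 and BPA 2 from descendants of dams injected with bisphenol A (BPA), which is used to make plastics, at 50 mg/kg between embryonic days 7.5 and 13.5. All animals were of the outbred CD-1 stock, so unrelated alleles can differ between any pair of animals. The labels and the text of the study place the BPA animals in different generations, and the list of BPA 2 carries another replicate number than its label. Nothing in the labels says whether littermates were used.

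Small vessels are wrapped by pericytes and larger ones by smooth muscle cells, together called mural cells. Smooth muscle cells contract through actin and myosin isoforms whose genes are switched on by serum response factor at CArG boxes, with myocardin, the product of Myocd, as its partner. Pericytes are held at capillaries by platelet-derived growth factor from the endothelium, which binds the receptor encoded by Pdgfrb, and Notch3 receives signals from ligands on the neighbouring cells. In whole tissue these cells are mixed with adipocytes, endothelial cells, fibroblasts and leukocytes, so fewer mural cells and less open chromatin per mural cell cannot be told apart.

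The lists were of unequal depth. They held 72375 to 98060 peaks, and the median summit pile-up, the number of extended reads over the highest point of a peak, was 22 and 23 in controls 1 and 2, and 19 and 38 in BPA libraries 1 and 2. A peak was therefore placed by its percent rank, its position by the authors' q-value as a percentage of its own list, so that a low percent rank marks a strong peak. All 7 adipocyte marker genes tested were open at the promoter in every library, and none of the 3 hepatocyte genes was in any. With 2 libraries a group, an exact two-sided permutation test cannot give a p-value under 0.333, so values are given for every library and set beside those of all protein-coding genes, without a test between groups.

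Promoter peaks were found at 6 and 5 of the 10 genes in the controls, and at 7 and 9 in the BPA libraries, with each pair given as replicate 1 and 2 here and throughout. Over all protein-coding genes the shares were 62.6%, 61.4%, 64.1% and 67.4% in the same order, so the vessel wall genes were close to this background in controls and above it in BPA 2. Acta2, Myh11, Cspg4, Pdgfrb and Mcam had a promoter peak in all 4 libraries, 5 of 10 against 57.9% of all protein-coding genes. Rgs5 and Myocd had one in the BPA pair and lacked it in the controls, 2 of 10 against 2.51%. No member showed the opposite pattern, which 0.433% of all genes did, and Cnn1 alone had no promoter peak in any library, against 30.4% of all genes. Tagln had one in control 1 and BPA 2, and Notch3 in BPA 2 only.

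**Figure D1:**
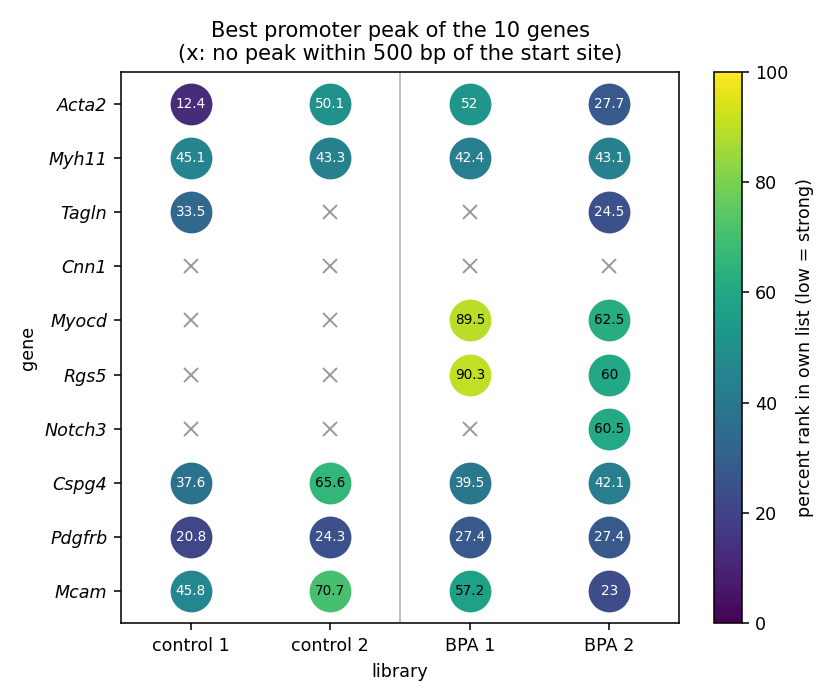
Percent rank of the best promoter peak for each of the 10 genes (rows) in each of the 4 libraries (columns). Colour and number give the percent rank, low being strong, and a grey cross marks a promoter without a peak. Rgs5 and Myocd carry peaks in the BPA pair alone, and Cnn1 has none.

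Where all 4 libraries had a promoter peak, its rank seldom separated the groups. Of the 5 genes, 1 (Myh11) ranked better in both BPA libraries and 1 (Pdgfrb) in both control libraries. Over the 12166 protein-coding genes with a promoter peak in all 4 libraries, 40.7% ranked better in both BPA libraries and 18.7% in both control libraries. The difference of the group mean percent ranks, BPA minus control, had a median of -1.46 over the 5 genes and of -1.84 over all such genes. This median had no stable sign, being 9.24 with peaks ranked by fold and 3.23 without control 2, and with equal numbers of peaks neither Myh11 nor Pdgfrb separated the groups.

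Acta2, which encodes the alpha-actin of smooth muscle, lies on the minus strand at chr19:34240336-34255373. Its promoter peak had percent ranks of 12.4 and 50.1 in controls and of 52.0 and 27.7 in BPA libraries. The groups overlapped, and each group held a strong and a weak library. The summits of these best peaks lay 907, 818, 954 and 664 bp downstream of the start site in the same order, inside the first intron. These peaks reach the promoter window from summits within the gene. Control 2 and BPA 1 each had 2 peaks in the window. The nearer of these lay 91 bp from the start site in control 2 and over it in BPA 1. The promoter itself carries a pair of near CArG boxes, with 1 of the 6 central bases C or G, that begin 84 and 34 bp upstream of the RefSeq start site. A near CArG box, with strict boxes counted too, was found in 9.99% of 32817 RefSeq promoters and the strict form, CC, 6 A or T, GG, in 1.63%. Of the 6 promoters of the 10 genes that were searched, 1, that of Acta2, held a near box and 0 held the strict form. The Acta2 boxes are printed with 10 bases either side, because GENCODE starts a first exon further upstream. They are shown 5′ to 3′ on the gene's strand with the box in capitals, at chr19:34255438-34255467 and chr19:34255388-34255417.
Acta2, box at -84: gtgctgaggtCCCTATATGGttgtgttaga
Acta2, box at -34: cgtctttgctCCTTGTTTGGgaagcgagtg

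Upstream of Acta2 2 regions were present in all 4 libraries and ranked better than the promoter peak in some. Peaks of the 4 lists that overlapped by at least 1 bp were merged into regions, which are numbered along each gene from its upstream end. Region 2, 10.5 kb upstream of the start site, ranked 15.2 and 10.1 in controls and 24.3 and 40.2 in BPA libraries, better in both controls, and it lies inside the noncoding gene Gm31355. Region 3, 7.34 kb upstream, ranked 29.4 and 27.5 in controls and 22.2 and 18.8 in BPA libraries, better in both BPA libraries. A strict CArG box within 100 bp of the summit was found in 1 of the 77 regions in the 10 loci, region 2. This share was close to the 1.05% of the 95118 regions in all protein-coding loci, so the box did not set the 10 loci apart. Region 2 also held TGACTCA, the site of AP-1 factors. Regions 2 and 4 were chosen for printing after their values were seen, region 2 for its CArG box and region 4 as the intronic summit. Both are 201 bases centred on the summit, on the gene's strand, at chr19:34265736-34265936 and chr19:34254366-34254566, with a strict CArG box and TGACTCA in capitals.
Acta2 region 2: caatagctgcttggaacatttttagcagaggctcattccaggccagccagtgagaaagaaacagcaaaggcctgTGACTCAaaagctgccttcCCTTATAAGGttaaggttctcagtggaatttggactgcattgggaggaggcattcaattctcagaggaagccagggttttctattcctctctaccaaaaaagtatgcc
Acta2 region 4: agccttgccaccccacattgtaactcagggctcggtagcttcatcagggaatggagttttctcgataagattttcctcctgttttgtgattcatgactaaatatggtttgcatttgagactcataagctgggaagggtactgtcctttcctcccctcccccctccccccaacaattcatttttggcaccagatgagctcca
At the opposite end of the gene, region 6, in the last exon, had a peak in both controls, ranked 61.3 and 89.8, and in neither BPA library. This was the only such region of the contractile protein genes.

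Myh11, the smooth muscle myosin heavy chain and a widely used marker of mature smooth muscle, lies on the minus strand at chr16:14194527-14291408. Its promoter peak ranked 45.1 and 43.3 in controls and 42.4 and 43.1 in BPA libraries. The groups did not overlap, but the closest libraries of the groups, at 43.3 and 43.1, nearly met. The strongest shared site of the locus was region 7, in intron 3, 32.4 kb downstream, which ranked 19.5 and 8.16 in controls and 18.5 and 19.3 in BPA libraries, with overlap of the groups. Region 11, in intron 9, ranked 15.9 and 17.6 in controls and 46.2 and 28.8 in BPA libraries. Region 1, 16.9 kb upstream, ranked 31.4 and 33.2 in controls and 98.8 and 78.8 in BPA libraries, which put it near the end of the BPA 1 list. Both were better in the controls, while region 14, in intron 40, had a peak in the BPA libraries only, ranked 90.1 and 68.5.

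Tagln, which encodes the actin-binding protein transgelin, lies on the minus strand at chr9:45929628-45936058. Its promoter window was overlapped by a peak in control 1, ranked 33.5, and in BPA 2, ranked 24.5. The summits lay 1045 and 1025 bp upstream of the start site, outside the window. BPA 1 had a peak at the same site, ranked 23.0, whose edge fell 527 bp from the start site, just outside the promoter limit, and the nearest peak of control 2 was 2206 bp away. The site, region 4, was thus present in 3 libraries and lacking in control 2 alone. Region 6, just past the gene end, had a peak in the BPA libraries only, ranked 86.5 and 78.9. The strongest peak of the locus, region 1, is the promoter of Sidt2 and A830035O19Rik and ranked 18.7 and 13.7 in controls and 6.88 and 6.25 in BPA libraries.

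Cnn1, calponin, an actin-binding regulator of contraction, lies on the plus strand at chr9:22099253-22109221. No peak lay closer than 2832 bp to its start site in any library. The locus held 2 regions, both present in all 4 libraries. Region 2, upstream of the gene, ranked 45.9 and 33.2 in controls and 29.8 and 18.1 in BPA libraries, better in both BPA libraries, and it was chosen for naming after its values were seen. Region 1, 13.8 kb upstream, is the promoter of Ecsit and ranked 1.73 and 0.854 in controls and 2.05 and 7.13 in BPA libraries, better in both controls. As the promoter of the set without a peak, 210 bases that stop before the first exon of either annotation are printed, at chr9:22099003-22099212. They held neither a CArG box nor TGACTCA, which 5.20% of promoters and 6.90% of regions in protein-coding loci held.
Cnn1 upstream: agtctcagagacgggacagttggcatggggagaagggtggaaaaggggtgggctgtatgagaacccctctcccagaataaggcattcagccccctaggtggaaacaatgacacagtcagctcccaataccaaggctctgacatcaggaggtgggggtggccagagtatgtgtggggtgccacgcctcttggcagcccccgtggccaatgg

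Myocd, the coactivator of serum response factor that drives the contractile genes, lies on the minus strand at chr11:65176561-65269989. Its promoter had a peak in BPA 1, ranked 89.5 with a summit pile-up of 11, and in BPA 2, ranked 62.5 with a pile-up of 29. In the controls the nearest peaks lay 1109 and 893 bp from the start site. That control peak is region 1, 1.41 kb upstream, ranked 29.4 in control 1 and 56.2 in control 2, and neither BPA library had it. Region 3, in intron 1, likewise had a peak in both controls, ranked 78.7 and 40.4, and in neither BPA library. Myocd was thus the locus with 2 of the 3 control-only regions, and the pattern upstream of its start site turned over from control-only, with a summit 1.41 kb upstream, to BPA-only, with a summit 0.235 kb upstream. Region 4, in intron 2, was the strongest of the locus in 3 libraries, ranked 7.86 in control 2, 18.1 in BPA 1 and 23.2 in BPA 2, and was not called in control 1.

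**Figure D2:**
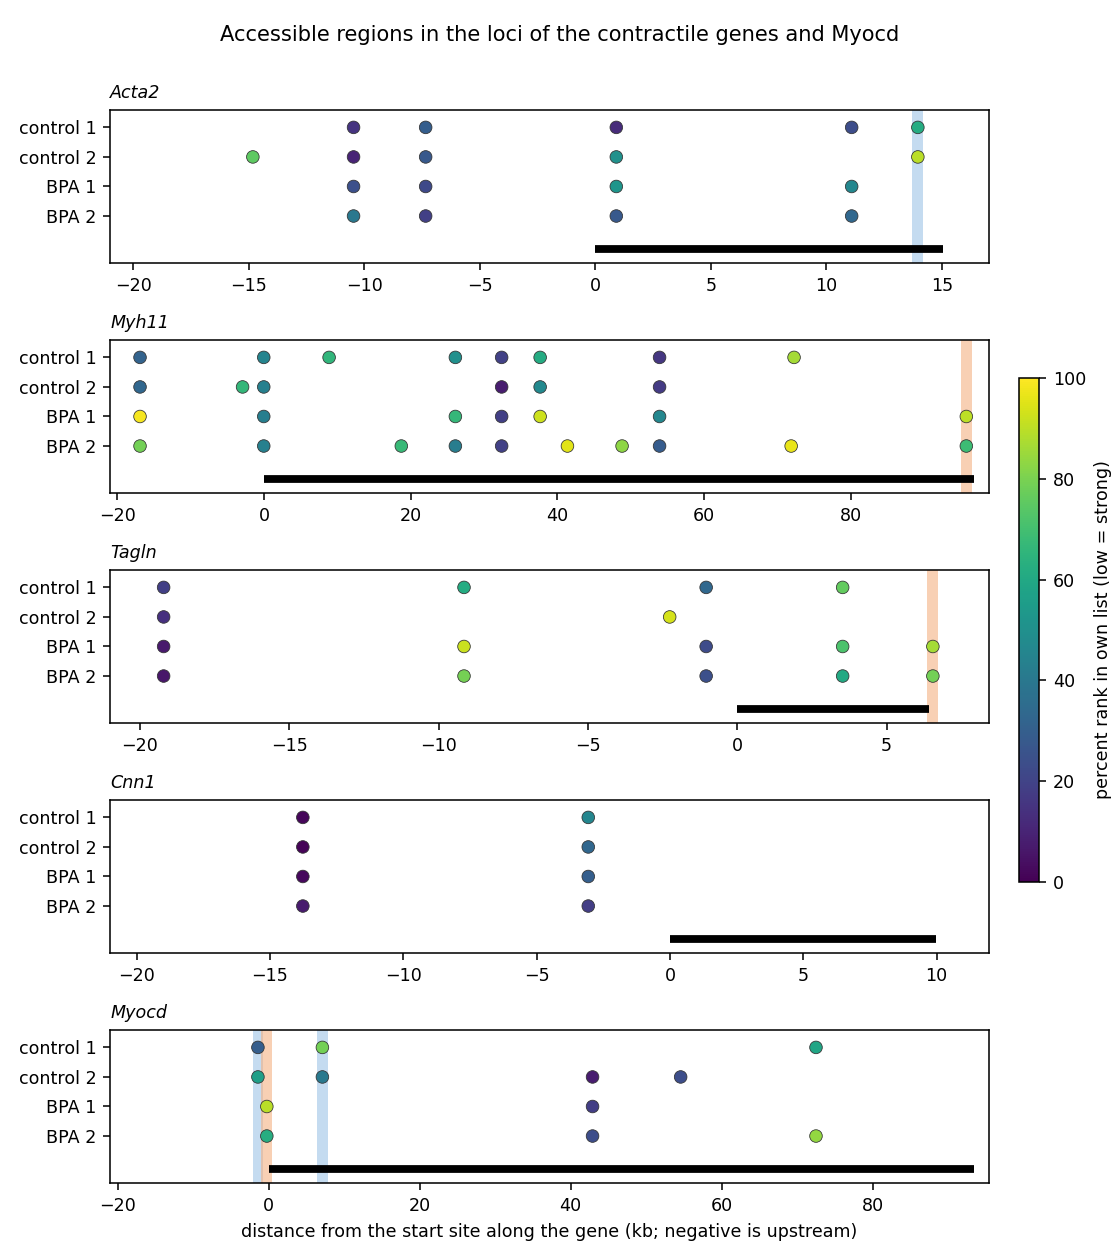
Regions in the loci of the contractile genes and Myocd by distance from the start site along the gene in kb (horizontal axis) and by library (rows). A point is a region with a peak in that library, coloured by percent rank, a black bar is the gene, orange bands mark BPA-only regions and blue bands control-only regions. Acta2 and Cnn1 have no orange band, and Myocd has 2 blue bands.

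Rgs5, a regulator of G protein signalling that is enriched in pericytes, lies on the plus strand at chr1:169655501-169695813. Its promoter had a peak in BPA 1, ranked 90.3 with a pile-up of 8, and in BPA 2, ranked 60.0 with a pile-up of 27. In controls the nearest peaks were 19722 and 18804 bp away. The locus held 3 and 1 peaks in controls and 5 and 7 in BPA libraries, so the groups did not overlap. Of 9 regions none was present in all 4 libraries and 3 were BPA-only, the promoter, region 3 and region 4. Region 3, in intron 1, was among the weakest peaks of both lists at 98.8 and 96.5. Region 4, in the same intron 16.7 kb downstream, ranked 67.0 in BPA 1 and 38.2 in BPA 2. The 250 bases upstream of the start site, taken from RefSeq at chr1:169655251-169655500, and 201 bases centred on the summit of region 4, at chr1:169672127-169672327, are printed as the BPA-only sites of this locus. Neither held a strict or near CArG box or TGACTCA, so no base is in capitals.
Rgs5 upstream: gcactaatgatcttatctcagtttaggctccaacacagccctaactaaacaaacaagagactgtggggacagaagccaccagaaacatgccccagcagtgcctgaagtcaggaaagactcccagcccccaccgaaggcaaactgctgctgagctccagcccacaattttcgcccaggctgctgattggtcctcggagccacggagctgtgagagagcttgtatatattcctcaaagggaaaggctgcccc
Rgs5 region 4: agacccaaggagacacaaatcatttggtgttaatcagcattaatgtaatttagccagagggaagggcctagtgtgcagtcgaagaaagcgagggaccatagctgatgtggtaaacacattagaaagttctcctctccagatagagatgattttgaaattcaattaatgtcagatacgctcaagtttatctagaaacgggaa

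Notch3, the Notch receptor of mural cells, lies on the minus strand at chr17:32120820-32166890. A promoter peak was called in BPA 2 only, ranked 60.5, with a summit 71 bp downstream of the start site. The nearest peak of BPA 1 ended 892 bp away and fell in the same merged region, while those of the controls were 23474 and 6289 bp away. The locus held 2 and 3 peaks in controls and 6 and 7 in BPA libraries. Of 7 regions, 3 were BPA-only: region 1 upstream at 52.0 and 54.7, region 3 at the start site at 75.8 and 60.5, and region 4 in exon 2 at 74.1 and 60.6. The strongest shared site, region 7 in the last exon, ranked 60.0 and 26.0 in controls and 26.3 and 19.5 in BPA libraries, with overlap of the groups. Region 1, 12.5 kb upstream, is shown as the best ranked of the BPA-only sites of Notch3, on the gene's strand at chr17:32179279-32179479, and it held neither box.
Notch3 region 1: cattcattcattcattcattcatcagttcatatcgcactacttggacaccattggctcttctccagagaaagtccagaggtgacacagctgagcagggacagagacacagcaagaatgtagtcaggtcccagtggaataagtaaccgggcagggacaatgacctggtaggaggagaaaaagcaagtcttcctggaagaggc

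Cspg4, the proteoglycan by which pericytes are often stained, lies on the plus strand at chr9:56865104-56899870. Its promoter was open in all 4 libraries, ranked 37.6 and 65.6 in controls and 39.5 and 42.1 in BPA libraries, with overlap of the groups. Region 1, 14.7 kb upstream, was the best shared site of the locus by its worst rank, at 46.9 and 51.9 in controls and 61.3 and 42 in BPA libraries. Away from these sites the libraries differed more. The locus held 4 peaks in each control, 8 in BPA 1 and 11 in BPA 2, and 4 of its 11 regions were BPA-only. Region 8, in intron 1 at 17.8 kb, was the best ranked BPA-only region of all 10 loci, at 25.7 with a pile-up of 33 in BPA 1 and 16.9 with a pile-up of 97 in BPA 2. Region 9, in intron 3, ranked 45.9 and 43.0, and region 6, in intron 1, 67.4 and 86.0. Region 2, at 26.5 and 33.4, is the promoter of the neighbouring gene Odf3l1. Region 6 held TGACTCA at 2 positions on the opposite strand, and region 8 held neither box. Both are shown as 201 bases centred on the summit, at chr9:56873157-56873357 and chr9:56882792-56882992, with TGACTCA on either strand in capitals.
Cspg4 region 6: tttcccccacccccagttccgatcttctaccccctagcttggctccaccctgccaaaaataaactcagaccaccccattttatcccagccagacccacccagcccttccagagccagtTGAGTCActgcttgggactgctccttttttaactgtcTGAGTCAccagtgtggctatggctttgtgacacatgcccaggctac
Cspg4 region 8: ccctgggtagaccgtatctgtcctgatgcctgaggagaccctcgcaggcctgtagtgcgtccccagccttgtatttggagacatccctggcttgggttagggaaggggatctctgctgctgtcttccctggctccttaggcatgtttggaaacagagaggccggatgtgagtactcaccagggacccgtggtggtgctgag

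Pdgfrb, the receptor that holds pericytes at the endothelium, lies on the plus strand of chromosome 18. Its promoter was strong in every library, with percent ranks of 20.8 and 24.3 in controls and 27.4 in both BPA libraries. The groups did not overlap, and the controls ranked better by a difference of the means of 4.86 percentage points. The local background under this peak was 1.77 and 2.19 times the lowest of the library in controls and 4.74 and 7.05 times in BPA libraries, and the share of this in the rank was not tested. The locus held 5 and 4 peaks in controls and 6 and 8 in BPA libraries. Its BPA-only site was region 3, in intron 1 at 9.45 kb, ranked 71.8 and 46.4.

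Mcam, a cell adhesion molecule of mural and endothelial cells, lies on the plus strand at chr9:44134658-44142726. Its promoter window is shared with Gm10687. The best peak in the window ranked 45.8 and 70.7 in controls and 57.2 and 23.0 in BPA libraries, with overlap of the groups. The summits differed in place. They lay 924 bp downstream in control 1, 433 bp upstream in control 2, 253 bp upstream in BPA 1 and 192 bp downstream in BPA 2. No control peak covered the start site, with the nearest edges 13 and 312 bp away. In control 2 a stronger peak of the same merged region, ranked 42.1, lay outside the window. The summit pile-up of 169 in BPA 2 stood on a local background of 50.6 reads, 13.3 times the lowest of that library, and in BPA 1 the multiple was 11.7, against 2.81 and 3.00 in controls. Region 4, in intron 13, was the BPA-only site, ranked 70.6 and 83.2. The number of peaks, 5 and 4 in controls and 3 and 5 in BPA libraries, overlapped.

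**Figure D3:**
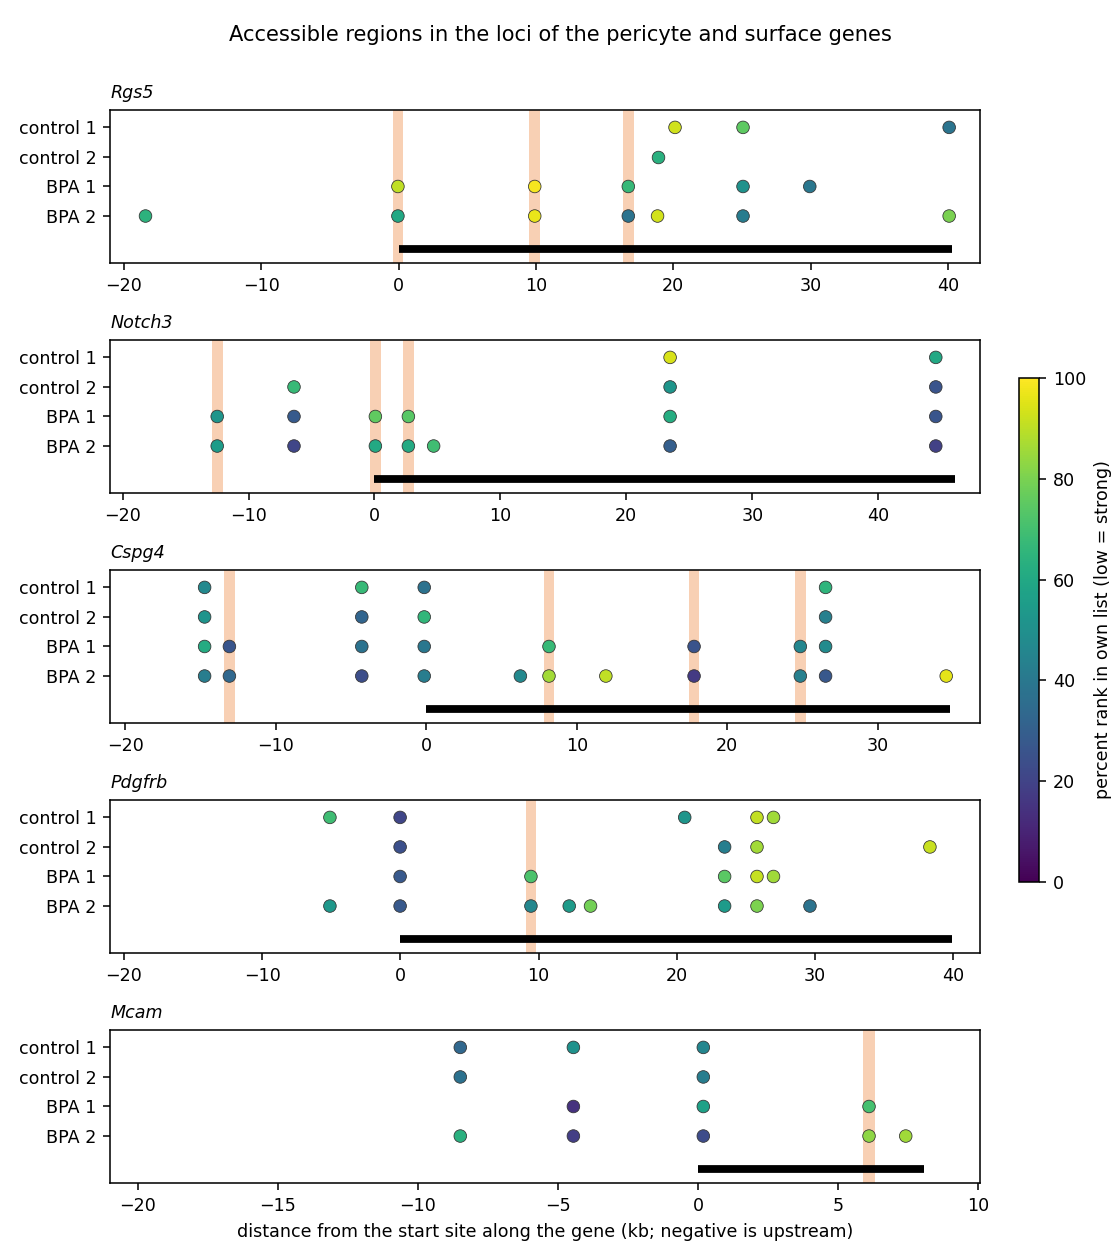
Regions in the loci of the pericyte and surface genes by distance from the start site along the gene in kb (horizontal axis) and by library (rows). Points, colours and bars are as in the map of the contractile genes, and orange bands mark BPA-only regions. Rgs5 and Notch3 each have 3 orange bands and Cspg4 has 4, and no region is control-only.

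Summed over the 10 loci, the controls had 43 and 38 peaks and the BPA libraries 52 and 62. The control mean was 40.5 ± 3.54 (SD, n = 2) and the BPA mean 57 ± 7.07 (SD, n = 2). The BPA libraries thus had 16.5 more peaks, and the groups did not overlap. The shortest list, BPA 1, was thus second in number. Per 10000 peaks of the list the values were 5.20, 4.27, 7.18 and 6.32, so the order of the groups held after scaling to the length of the lists. Over all protein-coding loci the numbers were 65857, 71154, 63241 and 82358, with a peak counted in every locus it overlaps. The lists held 82665, 88911, 72375 and 98060 peaks. Relative to its list each BPA library thus stood above both controls there too, and this order was not particular to the 10 loci. More peaks in both BPA libraries were seen at Rgs5, Notch3, Cspg4 and Pdgfrb, 4 of 10 loci against 14.3% of all protein-coding loci, and more in both controls at 0 of 10 against 8.89%. The other 6 loci, all 4 contractile protein genes among them, overlapped between the groups.

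**Figure D4:**
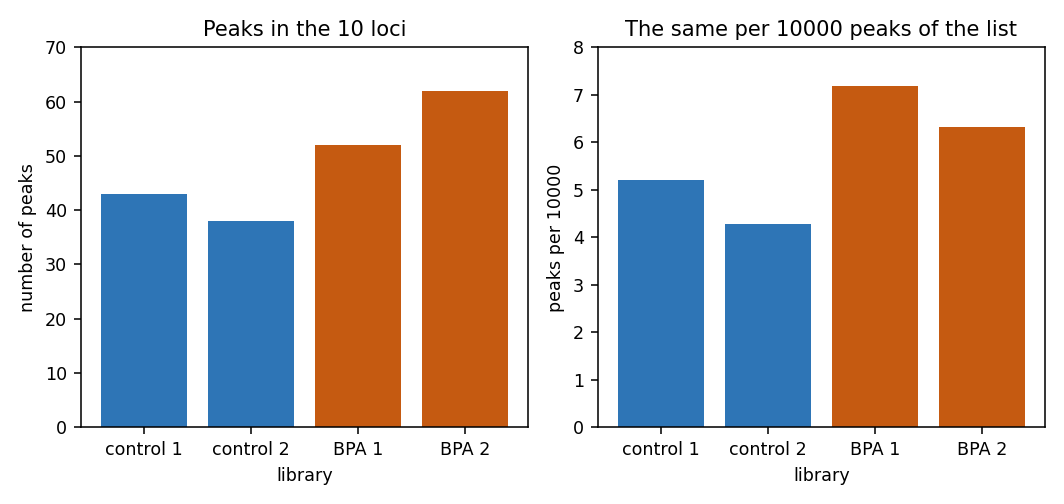
Number of peaks in the 10 loci by library (left) and the same per 10000 peaks of the library's list (right), with controls in blue and BPA libraries in orange, 1 bar a library. Both BPA bars stand above both control bars in either panel.

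The regions of the loci were then counted by the libraries that held them. Of the 77 regions in the 10 loci, 19 had a peak in all 4 libraries, 24.7% against 30.1% of the regions of all protein-coding loci. BPA-only regions numbered 15, or 19.5% against 9.72%, and control-only regions 3, or 3.90% against 4.64%. At Rgs5, Notch3, Cspg4, Pdgfrb and Mcam 12 of 43 regions were BPA-only, 27.9%, and 0 were control-only. Rgs5, Notch3 and Cspg4 gave 3, 3 and 4 of these 12, while Pdgfrb gave 1 of 11 regions, 9.09%, and Mcam 1 of 5. At Acta2, Myh11, Tagln and Cnn1 2 of 28 were BPA-only, 7.14%, and 1 was control-only. Myocd had 1 BPA-only and 2 control-only regions of 6. The difference between these gene groups was not tested. In regions with a peak in all 4 libraries no such contrast was seen, with 4 of 19 better in both BPA libraries against 30.4% of such regions in general and 5 of 19 better in both controls against 25.3%.

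In 12 of the 15 BPA-only regions the worse of the ranks was past the middle of its list. The same share was not computed over all protein-coding loci, so it is not read as a trait of these loci. Of the 15, 8 lay in introns, as did 40 of all 77 regions, 4 upstream, 2 in exons and 1 past the gene end. With peaks limited to a −log10 q-value from 5 upwards, 11 of 63 regions were BPA-only, 17.5% against 13.2% of all protein-coding loci, so the distance to the background narrowed. Neither Rgs5 nor Myocd then kept a BPA-only promoter peak. A further 23 regions had a peak in 1 library only, 13 of them in BPA 2, the deepest library, and 1 in BPA 1, the shallowest. Without BPA 2, 18 of 69 regions were found in BPA 1 and in neither control, 26.1% against 14.8%, so the contrast was also seen with the shallowest library alone.

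Sequence features of the regions were set beside those of all regions in protein-coding loci. Within 100 bp of the summit the median G+C content was 53.7% over the 77 regions and 48.8% over all regions of protein-coding loci, and 54.7% against 50.2% among BPA-only regions. A near CArG box, a form added after the values were seen, lay in 8 of 77 regions, 10.4% against 6.66%. All counts of near boxes include strict boxes. Among regions with a peak in all 4 libraries it was 4 of 19, 21.1% against 6.18%. Of these 4, 1 is the promoter of Sidt2 and A830035O19Rik, and 1 is Acta2 region 2, counted by its strict box. Among BPA-only regions it was 1 of 15, 6.67% against 6.95%, that one at the Myocd promoter. TGGGAA, the core of the RBPJ site through which Notch receptors act, lay in 17 regions, 22.1% against 20.2%, and GGAATG, a TEAD site, in 12, 15.6% against 13.0%. TGACTCA lay in 4 regions, 5.19% against 6.90%. Both strands were searched, and TGGGAA and GGAATG can overlap other matches.

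Wider lists of related genes were set beside the same background. BPA-only promoters were 3 of 20 in the contractile list, 1 of 19 in the pericyte list and 1 of 21 among regulators and signals. Over all protein-coding genes the share was 2.51%. Control-only promoters were 1 of 20 in the contractile list and 0 in the other lists, against 0.433%. In the loci 13.4% of the regions of the contractile list, 11.2% of the pericyte list and 12.0% of the regulators and signals were BPA-only, against 9.72%. These shares lay nearer to the background than the 19.5% of the 10 genes. The wider contractile list did not lie under the wider pericyte list. In the smaller sets the contractile proteins had 7.14% and the pericyte and surface genes 27.9%. In the wider contractile list of 20 genes, 12 and 11 promoters were open in controls and 15 and 15 in BPA libraries. Lmod1, which nucleates actin filaments in smooth muscle, Des, the muscle intermediate filament desmin, and Casq2, a calcium-binding protein, were open at the promoter in the BPA pair alone, and Nrip2 in the control pair alone. In the wider pericyte list of 19 genes the numbers were 12, 11, 14 and 17, and Ebf1, a transcription factor, was the BPA-only promoter, ranked 61.7 and 11.4. Among 21 regulators and signals they were 19, 19, 19 and 21, with Dll4, an endothelial Notch ligand, BPA-only at 28.7 and 21.2.

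Of the promoters open in all 4 libraries, 4 of 9 in the contractile list, 4 of 10 in the pericyte list and 7 of 18 among regulators and signals ranked better in both BPA libraries, against 40.7% of all such genes, and 1, 0 and 1 in both controls, against 18.7%. The 12 with the largest ratio of the group means, all over 2-fold, are named by that size and not as typical of the lists. Pdgfb, the ligand of Pdgfrb, ranked 85.3 and 71.2 in controls and 23.9 and 11.4 in BPA libraries. Cd248, a surface protein of pericytes and fibroblasts, ranked 84.5 and 74.6 in controls and 21.2 and 17.2 in BPA libraries. The promoter of the receptor gene Pdgfrb lay between 20.8 and 27.4 throughout, also without overlap of the groups, and ranked better in both controls. Vcl, Tpm1, Hspb1, Anpep, Tead1, Tead3, Agtr1a, Tgfb1 and Cald1 also ranked better in both BPA libraries, with group means 2.33 to 3.90 times apart. Synpo2, an actin-associated protein of muscle, went the other way, with 28.5 and 18.3 in controls and 61.3 and 60.0 in BPA libraries.

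Of the markers of other cell types, the endothelial ones showed the largest such contrast. Of 10 endothelial genes 3 and 4 had an open promoter in controls and 10 and 10 in BPA libraries, and 6 (Pecam1, Cdh5, Eng, Emcn, Tie1 and Vwf) were open in the BPA pair alone. In their loci 25 of 96 regions were BPA-only, 26.0%, close to the 27.9% of the pericyte and surface genes. Of 9 progenitor and fibroblast genes 7, 6, 8 and 8 had a promoter peak and 8 of 62 regions were BPA-only, 12.9%. At the 7 adipocyte genes 4 of 54 regions were BPA-only, 7.41%. Of 6 leukocyte genes 2, 3, 4 and 4 had a promoter peak and 7 of 44 regions were BPA-only, 15.9%. Promoter peaks were found at 2, 2, 2 and 1 of 3 mesothelial genes and at 3, 2, 2 and 2 of 6 skeletal muscle genes. Of 4 Schwann cell genes 3 had a promoter peak in every library. The part of endothelial or other cells in the values of the vessel wall genes was not tested.

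**Figure D5:**
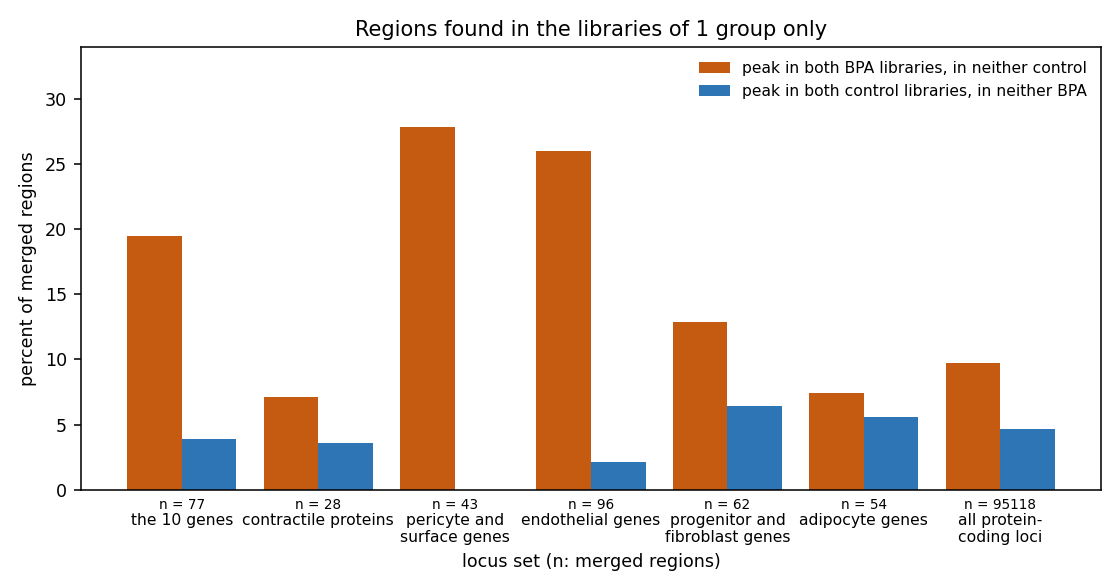
Percentage of merged regions called in the whole of 1 group and in no library of the other (vertical axis), for the loci of the 10 genes, their 2 subsets, 3 marker lists and all protein-coding genes, with BPA-only in orange and control-only in blue and the number of regions under each pair of bars. The pericyte and surface genes, at 27.9%, and the endothelial genes, at 26.0%, stand above the 9.72% of all protein-coding loci, and the contractile genes, at 7.14%, do not. The wider contractile and pericyte lists, at 13.4% and 11.2%, are not drawn and do not show this order.

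Local background also moved with the groups. Over the peaks of the 10 loci its median was 2.17 and 2.10 times the lowest of the library in controls and 2.82 and 2.80 times in BPA libraries. Over all peaks the multiples were 1.60, 1.58, 2.06 and 1.73. The bases covered by peaks in the 10 loci were 27215 and 19521 in controls, 30669 in BPA 1 and 58701 in BPA 2, where peaks were also widest. The part of background, depth and peak width in the number of peaks was not tested, and because the labels name no batch, an effect of batch and one of treatment cannot be told apart.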

How the data were processed

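The 4 libraries were grouped by the labels into 2 controls and 2 BPA animals. Reads had been trimmed with Trim Galore, mapped to mm10 with Bowtie2 2.3.5.1, reduced to unique reads without PCR duplicates, and peaks had been called on each library alone with MACS2 2.2.7.1. The authors deposited 1 peak list per library. Its score is an integer form of the −log10 q-value, its ratio is the fold of the summit pile-up over the local background, and its −log10 p-value and −log10 q-value are Poisson values of MACS2, as the authors deposited them. The lowest −log10 q-value, between 1.30 and 1.31, corresponds to a threshold of 0.05. The score itself was not used.

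Start sites and gene ends came from curated RefSeq transcripts on GRCm38, with 1 start site for each of the 10 genes. Peaks were ranked by q-value within their list. Peaks overlapping by 1 bp or more were merged into 147157 regions, 95118 of them in loci of protein-coding genes. The pile-up and background were solved from the fold and p-value, with a relative error under 1e-04 for 100% of peaks. The overlap, ranking and pile-up steps were tested on simulated data with known answers. Python 3.11.15, numpy 2.4.6, pandas 2.3.3 and scipy 1.17.1 were used. Motifs were searched within 100 bp of the summit and in the 6 promoters of the 10 genes that the RefSeq promoter sequences held. For Myh11, Tagln, Pdgfrb and Myocd the promoter sequence table was not used here, and motifs were searched only around summits.

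The genes and lists were chosen with earlier results of these data known. By rule, all 10 genes were named, with the best shared region of a locus, every region present in 1 group only, and, from the wider lists, promoters with a peak in 1 group only or with ranks over 2-fold apart without overlap, at most 12. Other regions named were chosen after their values were seen, as was the near CArG box. As alternatives, a −log10 q-value limit of 5, equal numbers of peaks, other promoter and locus widths, summits, other ranks and leaving out each library were tried. The lists hold no read totals, so the depth is known only through the pile-up and the lowest background, 2.85, 2.70, 1.16 and 3.80 in control 1, control 2, BPA 1 and BPA 2.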

Additional observations from a re-analysis of the deposited data

How the results depend on the processing

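Under 16 alternative settings 140 values were recomputed, of which 24 moved and 4 changed sign. The other 112 kept their sign and stayed within 1.5 times the main count, or, for the differences, within 1 replicate SD, which is 5.59 peaks and 9.64 percentage points of rank. No paired analysis was possible because no test compared the groups, and the replicate numbers only name the libraries. The 16.5 more peaks of the BPA libraries over the 10 loci kept their sign in every setting, with 11.5 to 21.5 when 1 library was left out, and as bases covered they were 21317 bp. The median difference of percent ranks at promoters, -1.46, has no stable sign. It was 1.70 with a promoter of 250 bp either side, 9.24 ranked by fold and 0.38 on the log2 scale of relative pile-up, where a positive value means stronger in controls, and -10.2 to 3.23 when a library was left out, turning positive without control 2.

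With the −log10 q-value limit of 5, 3 genes in place of 5 were open at the promoter throughout and 0 in place of 2 in the BPA pair only, control 2 had 3 in place of 5, and 12 regions in place of 19 were shared by all and 1 in place of 3 control-only. Shared regions were 33 with 50 kb upstream, 11 without the upstream part and 9 when the peaks of a library had to cover 50% of a region. Genes ranked better in both BPA libraries, 1, were 0 with equal numbers of peaks, 0 ranked by fold and 2 by summit. Those better in both controls, 1, were 0 with equal numbers of peaks, 0 with the q-value limit and 3 by relative pile-up. Leaving out a library gave 1 to 3 genes better in BPA, 1 to 3 better in controls, 1 to 2 without a promoter peak, 18 to 28 BPA-only regions, the most without BPA 1, and 4 to 9 control-only regions, the most without control 1. A region then needs a peak in fewer libraries. With equal numbers of peaks BPA-only regions were 11 of 67, 16.4% against 10.8% of all protein-coding loci. The cause of these moves was not tested.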
